A study of Mus musculus with 14 samples.

Results

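The AP-1, EGR and other immediate early genes are described here as 10 genes, chosen by gene symbol from the deposited gene table: Fos, Fosl2, Jun, Junb, Jund, Egr1, Egr3, Atf3, Ier2 and Ier3. All 10 were present among the 14161 genes of the table, and all 10 were among the 14156 tested. Polyadenylated RNA of heart ventricle was sequenced from 14 male mice, sampled 4 h after an intraperitoneal injection. The groups were GX/GX mice given DMSO, the vehicle (n = 4), GX/GX mice given MRL5 (n = 5), WT/WT mice given DMSO (n = 3) and WT/WT mice given MRL5 (n = 2). GX marks a changed form of NaV1.5, the main sodium channel of heart muscle. MRL5 is a GX family compound known only by a code name, described by the submitters as a potent inhibitor of the GX channel. The study's design text counts 4 GX mice with MRL5 and the sample labels 5, and all 5 were used. The sources give no age, strain or dose, and whole ventricle holds all cardiac cell types, so more cells of a type and more RNA per cell cannot be told apart.

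Immediate early genes are transcribed within minutes of a stimulus from factors already present in the cell, without new protein synthesis. Growth factors, stretch, calcium entry and stress reach them through the MAP kinases, which act on serum response factor (SRF) with its ternary complex partners and on CREB and ATF proteins bound near the promoters. Fos and Jun proteins pair through leucine zippers to form AP-1, which binds target genes in turn, while the EGR proteins bind GC-rich sites through zinc fingers. In heart muscle this set is known as an early answer to pressure load, ischaemia and adrenergic drive, and most of the transcripts are short-lived.

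1 library stood apart. The third library of the GX MRL5 group (GX MRL5 3; libraries are numbered within a group in record order) held the highest value of 9 of the 10 genes, where it held the highest value of 10.9% of all genes tested (1547 genes). For 6 of the 10 it lay at least 2-fold above the next library, a gap found there for 102 genes in all (0.721%). The differences that include it are given with and without it. This was set beforehand, with earlier results of these data known, so the counts describe the library and are not separate evidence. The sum of the column values lay between 17244042 and 22163644 over the libraries, and mitochondrial genes held 38.9% to 49.7% of it. For GX MRL5 3 these were 21531953 and 45.1%. Markers of ventricular cardiomyocytes (10 of 10 measured) summed to 645676 in GX MRL5 3 and 561932 to 723499 elsewhere. The library was also within the range of the others for endothelial (8 of 8 measured), fibroblast (7 of 7), smooth muscle and pericyte (7 of 7), macrophage (8 of 8), neutrophil (3 of 7), erythroid (7 of 7) and atrial markers (5 of 7). Atrial markers summed to 26708 in WT DMSO 2 and to 1102 to 6425 in the other libraries. Library names form 2 sets: set 174 comprises WT DMSO 2, WT DMSO 3 and GX MRL5 4, and set 148 the other 11.

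Values are the deposited signal, named scaled reads per base in the file. The scaling is not known, so levels are compared between libraries for 1 gene and not between genes. Differences are of log2(value + 1), fitted with limma over the 14 libraries, and a gene was called at a Benjamini-Hochberg adjusted p under 0.05 over all 14156 genes. No gene was called in any of the 5 contrasts (0 of 14156, 0%), the 10 genes included, so what follows are values and their spread.

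The first comparison asks what MRL5 did where the sensitive channel is present. In GX mice 9 of the 10 genes had a positive difference between MRL5 and DMSO, with a median of 0.61, against 0.01 for all genes tested, of which 51.5% were positive. Without GX MRL5 3 the median was 0.10, with 8 of 10 positive, so most of the shift rested on that library. In the fits over both library sets, Atf3 and Junb had an unadjusted limma p under 0.05 both with it and without it. Such a p was found for 4.13% of all genes with every library (585 genes, 384 of them higher with MRL5) and for 3.32% without GX MRL5 3 (470 genes). Within set 148 Jun alone of the 10 had such a p, against 3.08% of genes (436). Leaving out GX MRL5 3 there as well gave 0 of the 10, against 2.37% (336). With the set as a covariate Atf3, Junb and Jun had it, against 4.03% (571). None of the 10 genes had GX MRL5 and GX DMSO groups that did not overlap, a separation seen for 1.1% of genes (156) and, without GX MRL5 3, for 1.86% (263).

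Atf3 encodes a stress-induced factor of the ATF and CREB family that pairs with Jun proteins and often represses its targets. It was the gene with the largest difference among the 10. Its signal was 106, 217, 188 and 97.8 in the 4 GX DMSO libraries and 94.4, 470, 6805, 489 and 860 in the 5 GX MRL5 libraries, in order of replicate. 4 of the 5 MRL5 libraries lay above every DMSO library, and GX MRL5 1 lay below all of them. In WT mice the signal was 133, 173 and 99.6 with DMSO and 79.2 and 111 with MRL5, a range that the 4 GX DMSO libraries overlapped. In GX mice the group mean was 152 ± 59.3 (SD, n = 4) under DMSO and 1743 ± 2842 (SD, n = 5) under MRL5. The log2 difference was 2.20 (SE 0.909, limma adjusted p = 0.999), and 1.36 (SE 0.546) without GX MRL5 3. Within library set 148 it was 2.31 (SE 1.10), and 1.23 (SE 0.645) when GX MRL5 3 was left out as well. Atf3 lies on chromosome 1 at 191170296 to 191218039, minus strand, in the GENCODE M21 annotation of GRCm38.

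Fos encodes the AP-1 subunit that defines the family, and needs a Jun partner to bind DNA. Its signal was 29.9, 28.3, 35.9 and 33.9 in GX DMSO and 22.4, 70.4, 558, 19.6 and 40.1 in GX MRL5. The MRL5 libraries lay on both sides of the narrow DMSO range, with GX MRL5 3 at 7.92 times the next library and 19.7 times the median of the other 13. In WT mice it was 28.7, 27.6 and 16.7 with DMSO and 17.0 and 19.4 with MRL5. The log2 difference in GX mice was 0.87 (SE 0.737) and 0.07 (SE 0.338) without GX MRL5 3. Fos lies on chromosome 12 at 85473890 to 85477273, plus strand.

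Promoter sequence is shown for 3 genes to set beside these values the elements through which the pathway is known to act: Fos and Atf3, with the largest ratios of GX MRL5 3 to the other libraries, and Jun, with a small one. Each run is the 250 bases before the RefSeq start on GRCm38.p6, 5′ to 3′ on the strand of the gene, and capitals mark matches to the motifs listed after it.
Fos (chr12:85473640-85473889, plus strand): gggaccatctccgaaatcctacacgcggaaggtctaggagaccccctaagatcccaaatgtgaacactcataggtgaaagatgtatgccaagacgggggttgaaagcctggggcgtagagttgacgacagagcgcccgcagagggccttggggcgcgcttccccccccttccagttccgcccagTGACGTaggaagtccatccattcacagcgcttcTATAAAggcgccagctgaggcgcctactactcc
Atf3 (chr1:191183334-191183583, minus strand): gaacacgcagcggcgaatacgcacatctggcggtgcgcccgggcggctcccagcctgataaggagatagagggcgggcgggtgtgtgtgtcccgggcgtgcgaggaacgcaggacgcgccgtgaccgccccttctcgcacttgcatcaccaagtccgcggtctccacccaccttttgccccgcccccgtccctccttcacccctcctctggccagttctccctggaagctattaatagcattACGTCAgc
Jun (chr4:95052223-95052472, minus strand): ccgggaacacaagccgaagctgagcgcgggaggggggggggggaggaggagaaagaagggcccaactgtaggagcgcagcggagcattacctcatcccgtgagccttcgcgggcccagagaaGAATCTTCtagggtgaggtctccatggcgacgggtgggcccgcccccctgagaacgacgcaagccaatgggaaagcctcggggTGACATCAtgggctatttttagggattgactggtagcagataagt
The RefSeq promoter table was used for 7 of the 10 genes, without Egr1, Egr3 and Ier2. It was searched on both strands for 7 motifs: TGACGT, the core of the cyclic AMP response element, TGACNTCA, an 8-base ATF and AP-1 element that can overlap the first, the 7-base AP-1 element TGANTCA, the CArG box of SRF, the TATA box TATAAA, the EGR element GCGNGGGCG and the heat shock pair GAANNTTC. Fos held TGACGT 66 to 61 bases before the start, a motif present in 6.47% of 32851 promoter windows, and TATAAA 33 to 28 bases before it (12.4%). Atf3 held TGACGT on the opposite strand 8 to 3 bases before its start, which lies inside the longer GENCODE gene. Jun held TGACNTCA 45 to 38 bases before the start (7.49%) and GAANNTTC 128 to 121 bases before it (6.69%). Fosl2 held GCGNGGGCG 79 to 71 bases before the start (4.7%) and GAANNTTC 244 to 237 bases before it. Junb, Jund and Ier3 had no match. The RefSeq start is not the GENCODE start for 5 of the 7: it lies 1210 bases upstream for Jund and 30 upstream for Junb, and 34706, 671 and 29 bases downstream for Atf3, Fosl2 and Ier3, so the windows do not describe the bases before the GENCODE starts. Of the motifs, neither TGANTCA (6.75% of windows) nor the CArG box (1.47%) was found in any of the 7 windows of 250 bases. Bases farther from the start were not searched, and Egr1, Egr3 and Ier2 were not covered. The windows therefore do not show whether these genes lack either element. A match describes letters in a window and is not evidence of binding.

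**Figure D1:**
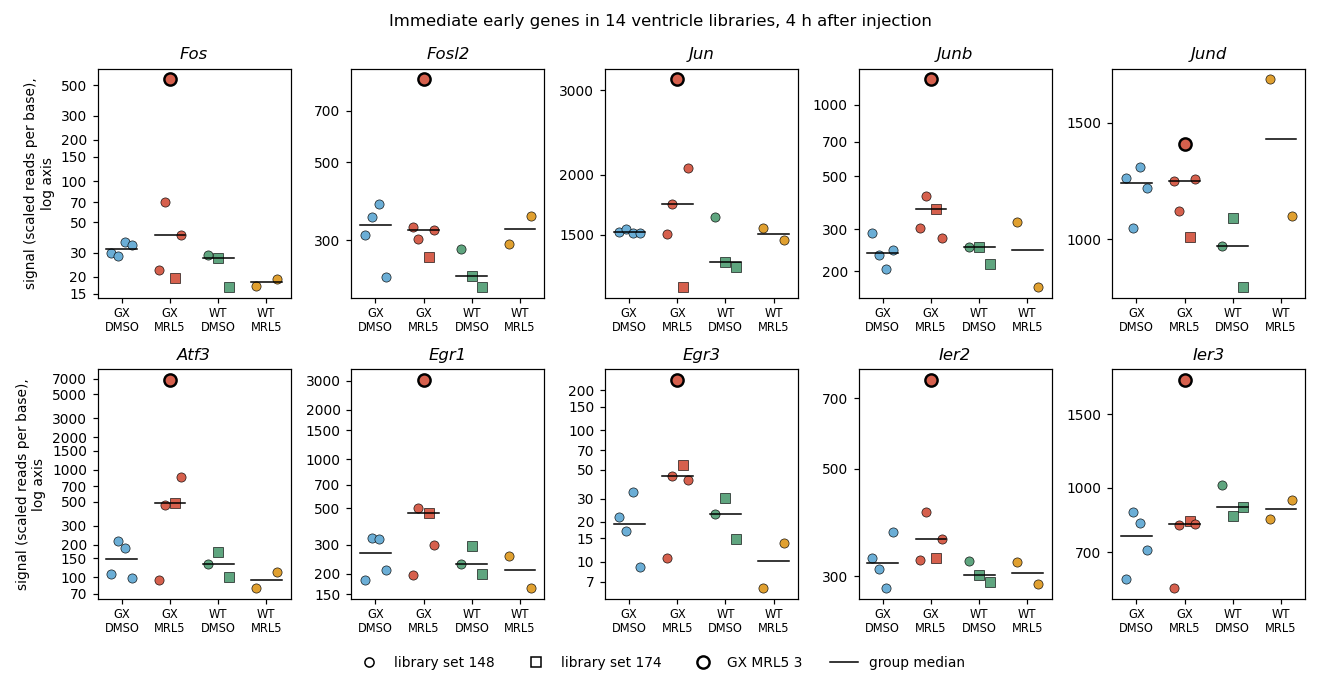
Signal of each gene (vertical log axis, scaled reads per base; the axes differ between panels) in the 14 libraries, by group, with bars at group medians, squares for library set 174 and a heavy outline for GX MRL5 3. For Atf3 that library sits at 6805 and the others between 79.2 and 860, while for Jund the highest library is WT MRL5 1 at 1748.

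Fosl2 encodes a Fos relative with a slower time course, also known as Fra-2. Its signal lay between 236 and 380 in GX DMSO and was 328, 302, 860, 270 and 321 in GX MRL5. Only GX MRL5 3 was outside the range of the DMSO libraries, at 2.26 times the next library. Its log2 difference was 0.25 (SE 0.274) and turned to -0.05 (SE 0.141) without that library. Fosl2 lies on chromosome 5 at 32135801 to 32157842, plus strand.

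Jun, the main partner of Fos, was the steadiest of the 10 under vehicle in GX mice. It was at 1522, 1542, 1512 and 1516 in GX DMSO, a spread of 13.4 (SD) about 1523, and at 1507, 1735, 3167, 1166 and 2062 in GX MRL5. With MRL5, 3 libraries lay above the DMSO range and 2 below it, the lowest being GX MRL5 4, the group's library of set 174. For Jun the log2 difference was 0.26 (SE 0.206) over all libraries and 0.06 (SE 0.140) without GX MRL5 3. Within set 148 it was 0.42 (SE 0.181), and 0.20 (SE 0.106) without GX MRL5 3. Jun lies on chromosome 4 at 95049034 to 95052222, minus strand, and overlaps the antisense gene Junos.

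Junb encodes a Jun protein that activates fewer targets than Jun and can hold AP-1 activity down. Its signal was 291, 233, 204 and 246 in GX DMSO and 305, 412, 1281, 365 and 275 in GX MRL5. In this case 4 of the 5 MRL5 libraries, GX MRL5 1 among them, lay above every DMSO library and GX MRL5 5 lay inside their range. The log2 difference was 0.86 (SE 0.365, limma adjusted p = 0.999), and 0.47 (SE 0.184) without GX MRL5 3. Within library set 148 it was 0.92, and 0.43 when GX MRL5 3 was left out as well. Junb lies on chromosome 8 at 84974484 to 84978718, minus strand, and overlaps Prdx2 on the other strand. The sources used here do not say whether reads were counted by strand, so reads of the overlapping pairs cannot be told apart.

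Jund encodes the Jun protein that resting cells already hold, and it is not sharply induced by most stimuli. It was the 1 gene of the 10 that did not peak in GX MRL5 3. The signal was 1237, 1041, 1288 and 1197 in GX DMSO and 1224, 1105, 1395, 1008 and 1233 in GX MRL5, with means of 1191 ± 107 (SD, n = 4) and 1193 ± 146 (SD, n = 5). The groups covered nearly the same range, and the log2 difference was 0.00 (SE 0.133), or -0.06 (SE 0.136) without GX MRL5 3. Jund lies on chromosome 8 at 70698949 to 70700616, plus strand, overlaps the antisense gene Gm11175, and was listed under 2 identifiers with identical values, of which 1 was kept.

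The EGR genes encode zinc finger factors induced alongside Fos. Egr1 was at 182, 330, 326 and 210 in GX DMSO and at 197, 501, 3047, 467 and 301 in GX MRL5. GX MRL5 2, 3 and 4 lay above every DMSO library, and GX MRL5 1 and 5 within their range. That gave a log2 difference of 1.06 (SE 0.612) and 0.43 (SE 0.292) without GX MRL5 3.

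Egr3, a related factor that Egr1 and calcium signals are known to induce, was at 21.7, 17.1, 33.5 and 9.03 in GX DMSO and at 10.7, 44.3, 241, 54.7 and 41.8 in GX MRL5. As for Atf3, every MRL5 library but GX MRL5 1 lay above all DMSO libraries. The log2 difference was 1.36 (SE 0.649) over all libraries and 0.79 (SE 0.494) without GX MRL5 3. Egr3 lies on chromosome 14 at 70077203 to 70082614, plus strand.

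The last pair is named for early response alone: Ier2 encodes a nuclear protein, and Ier3 a protein linked to survival under stress and to the control of ERK. Ier2 lay between 283 and 371 in GX DMSO and was at 324, 407, 764, 327 and 357 in GX MRL5. The log2 difference was 0.36 (SE 0.200), and 0.13 (SE 0.104) without GX MRL5 3. Ier3 lay between 604 and 874 in GX DMSO and was at 574, 813, 1816, 832 and 817 in GX MRL5, with a log2 difference of 0.27 (SE 0.242) that was 0.01 (SE 0.137) without GX MRL5 3. For both genes GX MRL5 3 stood above all other libraries, by 1.88 times for Ier2 and 1.79 times for Ier3. Ier2 lies on chromosome 8 at 84661331 to 84662852, minus strand, and Ier3 on chromosome 17 at 35821684 to 35822923, plus strand.

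The 10 genes thus differed in how far GX MRL5 3 stood above the median of the other 13 libraries: 51.3-fold for Atf3, 19.7-fold for Fos, 11.9-fold for Egr1, 11.1-fold for Egr3, 5.05-fold for Junb, 2.84-fold for Fosl2, 2.36-fold for Ier2, 2.18-fold for Ier3, 2.09-fold for Jun and 1.26-fold for Jund. Over the other 13 libraries the order of variability was in part the same. The highest of the 13 was 10.9 times the lowest for Atf3, 8.72 times for Egr3 and 4.22 times for Fos, against 1.44 times for Ier2 and 1.72 times for Fosl2. Averaged over the 10 genes, the distance from the 14-library median on the log2 scale was 2.40 for GX MRL5 3. It was 0.58 for replicate 2 of that group, 0.48 for replicate 5, 0.29 for replicate 4 and -0.26 for replicate 1. In GX DMSO it ran from -0.24 to 0.13, in WT DMSO from -0.38 to -0.01, and in WT MRL5 it was -0.26 and -0.29. The GX mice given MRL5 were thus unlike one another, with GX MRL5 1 at the level of the vehicle and WT libraries.

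**Figure D2:**
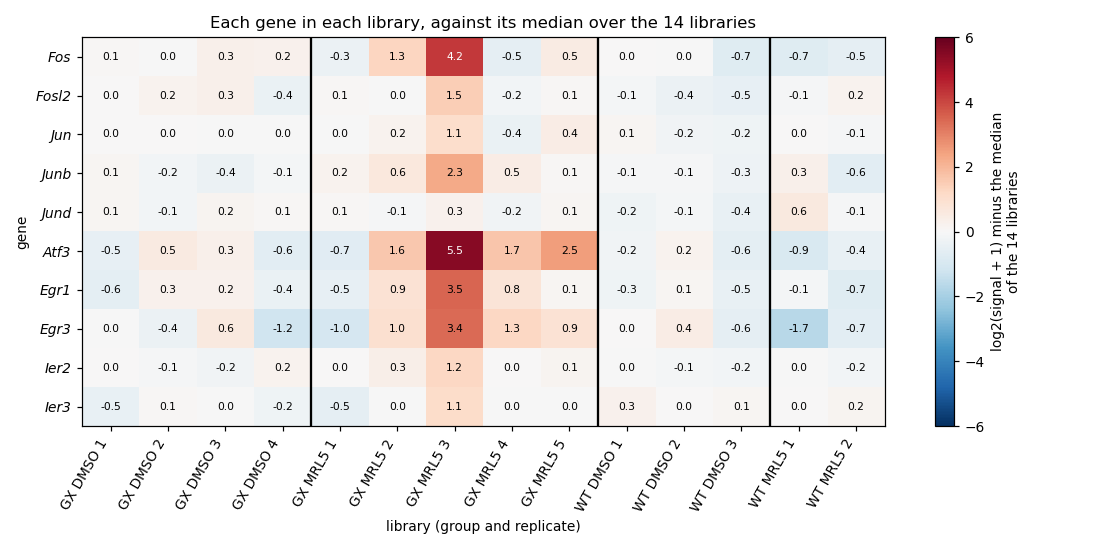
Each cell gives log2(signal + 1) of 1 gene (row) in 1 library (column) minus the gene's median over the 14 libraries, with lines between the 4 groups. The column of GX MRL5 3 is above the median for all 10 genes, GX MRL5 2, 4 and 5 are above it most clearly for Atf3 and Egr3, and the row of Jund runs from -0.44 in WT DMSO 3 to 0.60 in WT MRL5 1.

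In the authors' deposited table, none of the 10 genes had a q-value under 0.05 for MRL5 against DMSO in GX mice, the smallest rounding to 1. By the authors' deposited table, the effects on a natural log scale were 1.53 for Atf3 (p = 0.0565), 0.59 for Junb (p = 0.0634), 0.96 for Egr3 (p = 0.111) and 0.61 for Fos (p = 0.376).

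The second comparison sets MRL5 against DMSO in WT mice, where the compound's target form of the channel is absent. Here 3 of the 10 genes had a positive difference and the median was -0.04, against 0.00 for all genes, of which 49.7% were positive. Jund was at 977, 1076 and 846 with DMSO and 1748 and 1086 with MRL5, so that the groups did not overlap. Its log2 difference was 0.52 (SE 0.180, limma adjusted p = 0.831), and it alone of the 10 had an unadjusted p under 0.05, as 5.64% of all genes did (799). Without GX MRL5 3, which enters here through the shared spread alone, it was again the 1 gene of the 10, against 5.67% of all genes (803). WT MRL5 1, which held the 1748, was also the library with the most genes at their highest value (2145 genes, 15.2%) and had the lowest mitochondrial share (38.9%). The part of these in the Jund value was not tested. Without that library the difference was 0.17, and without WT MRL5 2 it was 0.86. WT DMSO 2 and WT DMSO 3 are in set 174, and every WT MRL5 library is in set 148. Treatment and set are therefore partly confounded here. With the set as a covariate the median of the 10 genes was -0.24. Jund was then at 0.40 (SE 0.209), and Fos at -1.19 (SE 1.12) in place of -0.37. In that fit 0 of the 10 had an unadjusted limma p under 0.05, against 4.38% of all genes (620).

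Fosl2 was at 285, 238 and 221 in WT DMSO and 294 and 351 in WT MRL5 (log2 difference 0.38, SE 0.373), and Egr3 at 22.9, 30.4 and 14.9 against 6.27 and 13.8 (-1.14, SE 0.883). These were the other genes of the 10 whose groups did not overlap, Fosl2 higher and Egr3 lower with MRL5. With groups of 3 and 2, 19.2% of all genes (2720) showed such a gap. In the authors' deposited table Fosl2 (p = 0.0261) and Egr3 (p = 0.0322) had p-values under 0.05 in WT mice, and the smallest q-value of the 10 was 0.999. The share of all genes with such a p in the authors' table was not counted. The unadjusted limma p was 0.325 for Fosl2 and 0.217 for Egr3. With the library set as a covariate their differences were 0.07 (SE 0.42) and -1.10 (SE 1.08). Fos, Jun, Junb, Egr1, Atf3, Ier2 and Ier3 overlapped between the groups, with differences from -0.48 (Atf3, SE 1.24) to 0.10 (Jun, SE 0.280).

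**Figure D3:**
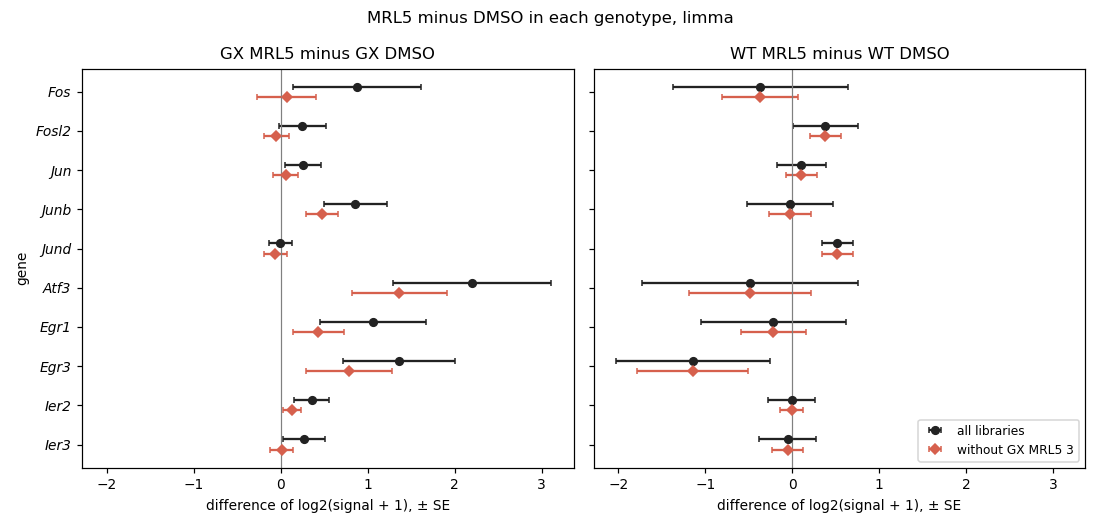
Difference of log2(signal + 1) between MRL5 and DMSO for each gene, in GX mice (left) and WT mice (right), from limma, with bars of 1 SE; black circles use all 14 libraries and red diamonds leave out GX MRL5 3. In GX mice the difference of Atf3 is 2.20 with the library and 1.36 without it, and that of Fos 0.87 and 0.07.

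The third comparison is of genotype alone, in mice given DMSO. The 10 genes had a median difference of 0.10, with 8 positive, against -0.02 for all genes, of which 46.6% were positive. None of the 10 had an unadjusted p under 0.05, as 5.67% of genes did (802). The spread in the fit is shared by the 4 groups, so GX MRL5 3 enters the errors here too. Without it Fosl2 had such a p (0.0377, limma adjusted p = 0.859), as 5.57% of genes did (788), and the SE went from 0.312 to 0.152 for Fosl2 and from 0.839 to 0.365 for Fos. No gene of the 10 had groups that did not overlap, a gap found for 7.42% of all genes (1050). The largest differences were 0.41 (SE 0.839) for Fos, at 28.3 to 35.9 for GX and 16.7 to 28.7 for WT, and 0.35 (SE 0.312) for Fosl2, at 236 to 380 in GX and 221 to 285 in WT. Ier3 had the lowest, at -0.30 (SE 0.276), with 604 to 874 in GX and 855 to 1015 in WT. Since 2 of the 3 WT DMSO libraries and no GX DMSO library are in set 174, genotype and set are partly confounded. With the set as a covariate the median was -0.13 and 3 of 10 were positive, so the direction of this shift is not settled by these libraries.

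Under MRL5, GX mice had higher means than WT mice for 9 of the 10 genes (median difference 0.67, against 0.00 for all genes), and for 7 of 10 without GX MRL5 3 (median 0.36). Of all genes 49.4% had a positive difference, and 49.6% without GX MRL5 3. Atf3 differed by 2.81 (SE 1.13, limma adjusted p = 0.721) and Egr3 by 2.26 (SE 0.809, limma adjusted p = 0.72). These were the 2 with an unadjusted p under 0.05, as 6.58% of genes had (932). Without GX MRL5 3 the values were 1.97 (SE 0.668) for Atf3 and 1.69 (SE 0.605) for Egr3, and Junb at 0.51 (SE 0.225) joined them, against 5.31% of genes (752). Fos, at 19.6 to 558 in GX and 17.0 to 19.4 in WT, and Ier2, at 324 to 764 in GX and 288 to 320 in WT, were the 2 whose groups did not overlap, as 9.25% of genes did (1310). The gap was narrow for both: GX MRL5 4 was 19.6 for Fos, next to the 19.4 of WT MRL5 2. Without GX MRL5 3 the Ier3 groups did not overlap either, with GX lower, and the share over all genes was 11.5% (1633).

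The interaction, which subtracts the MRL5 effect of WT mice from that of GX mice, had a median of 0.62 over the 10 genes with 8 positive, and 0.29 with 7 positive without GX MRL5 3, against 0.02 for all genes. Of all genes 52.2% were positive, and 52.1% without GX MRL5 3. Egr3 had 2.50 (SE 1.10, limma adjusted p = 0.755), and 1.93 (SE 0.807) without GX MRL5 3. Jund had -0.52 (SE 0.224, limma adjusted p = 0.755), and -0.58 (SE 0.222) without that library. For Egr3 lower values in WT MRL5 and higher ones in GX MRL5 both entered, and for Jund the 1748 of WT MRL5 1. These 2 had an unadjusted p under 0.05, against 6.39% of all genes (904), and had it also without GX MRL5 3, against 5.61% (794). With the library set as a covariate 0 of the 10 had such a p, against 4.72% of all genes (668). Within set 148 it was again 0, against 3.65% (516), and 0 without GX MRL5 3 as well, against 3.15% (446). Atf3 had 2.68 (SE 1.54, limma adjusted p = 0.755) and 1.84 (SE 0.891) without GX MRL5 3. The contrasts share libraries, so they are not independent of one another.

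Ordered by group mean over all 14 libraries, GX MRL5 came first for 9 of the 10 genes, and no neighbouring pair of groups in any of these orders was free of overlap. Without GX MRL5 3 it came first for 7 of the 10. For Fosl2, Jund and Ier3 it was then below 2 other groups, and for Ier3 the 2 WT MRL5 libraries, next above it in the order, did not overlap with it. Fos, Egr1, Atf3 and Ier2 had the order GX MRL5, GX DMSO, WT DMSO and WT MRL5, which also held without GX MRL5 3.

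Other genes of the pathway were taken from lists chosen with earlier results known, and are given for MRL5 against DMSO in GX mice as counts and medians. Of the other AP-1 and bZIP relatives 12 were measured, with Fosb and Fosl1 not in the table. Their median was 0.0018, and -0.05 without GX MRL5 3. With all libraries 0 had an unadjusted p under 0.05, against 4.13% of all genes. Without GX MRL5 3 it was 1, Atf7, against 3.32% of all genes. Atf7 had a difference of -0.44 (SE 0.212), and -0.49 (SE 0.227) without that library. For Jdp2, a repressor that competes for Jun, the values were -0.23 (SE 0.147) and -0.30 (SE 0.146). Of the EGR list only the corepressors Nab1 and Nab2 were measured. Nab2, which EGR proteins are known to induce and which limits their activity, was at 74.0 to 108 in GX DMSO and at 70.0, 187, 216, 195 and 224 in GX MRL5, with GX MRL5 1 the lowest. Its difference was 0.90 (SE 0.305), and 0.80 (SE 0.321) without GX MRL5 3, while Nab1 had 0.05 (SE 0.154) and -0.04 (SE 0.150). Nab1 and Nab2 were named after their values were seen.

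Of 38 other immediate early genes measured, 26 were positive, against 51.5% of all genes, and 6 had an unadjusted p under 0.05, all higher with MRL5, against 4.13% of all genes. The median was 0.26, and 0.02 without GX MRL5 3, when 20 were positive and 6 were higher and 2 lower at that p, against 3.32% of all genes. Hbegf, a growth factor that signals through the EGF receptor, was at 374 to 691 in GX DMSO and 590, 1044, 5825, 1250 and 1542 in GX MRL5, with a difference of 1.43 (SE 0.486) and 0.94 (SE 0.253) without GX MRL5 3. Socs3, a feedback inhibitor of cytokine receptors, was at 10.7 to 22.1 and 16.0 to 177 (1.33, SE 0.527, and 0.79, SE 0.345, without GX MRL5 3). Btg1, which restrains proliferation, was at 235 to 280 and 216 to 468 (0.47, SE 0.178, and 0.40, SE 0.183). In GX MRL5 3 a total of 27 of the 38 genes were at their highest. Not all went that way. Nr4a1, an orphan nuclear receptor, ranged from 122 to 486 under DMSO and from 69.0 to 369 under MRL5 (-0.72, SE 0.448, and -1.05, SE 0.384, without GX MRL5 3), and was named after its values were seen.

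For genes that act upstream, the median was 0.07 over 13 MAP kinase phosphatases and Sprouty and Spred inhibitors (0 with an unadjusted p under 0.05), -0.0060 over 11 genes of the SRF and CREB machinery (0) and 0.0090 over 17 kinases of the cascades (1 higher). Such a p was found for 4.13% of all genes. Without GX MRL5 3 the medians were -0.03, -0.03 and 0.02, and 0 genes of these lists had such a p, against 3.32% of all genes. Spred1 had 0.35 (SE 0.196), Spry2 0.31 (SE 0.205) and Spry1 -0.28 (SE 0.152). Leaving out that library gave 0.21 for Spred1, 0.12 for Spry2 and -0.30 for Spry1. Srf itself had -0.13 (SE 0.111), and the CREB coactivators Crtc3 and Crtc2 0.22 (SE 0.155) and 0.12 (SE 0.103), against -0.13, 0.19 and 0.13 without it. Map2k3, a kinase that activates p38, had 0.22 (SE 0.093), and 0.17 (SE 0.091) without GX MRL5 3, and Rps6ka3 had 0.35 (SE 0.241) and 0.13 (SE 0.190). In other contrasts Srf had 0.45 (SE 0.15) for MRL5 in WT mice and 0.40 (SE 0.13) for GX against WT under DMSO. Its interaction was -0.58 (SE 0.19). It alone of the 11 had an unadjusted p under 0.05 in each, against 5.64%, 5.67% and 6.39% of all genes. Srf was at 261 to 281 in WT DMSO and at 456 and 307 in WT MRL5.

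Downstream, 14 genes known as AP-1 targets had a median of 0.55, with 13 positive, against 51.5% of all genes. Of the 14, 4 had an unadjusted p under 0.05, all higher with MRL5, against 4.13% of all genes. When GX MRL5 3 was left out the median was 0.47, with 12 positive and 5 higher at that p, against 3.32% of all genes. Ccl2, a chemokine for monocytes, was at 16.6 to 38.9 in GX DMSO and at 26.6, 132, 1494, 192 and 113 in GX MRL5. The order of the libraries was again GX MRL5 1 within the DMSO range, GX MRL5 3 far above it and the other three between them. Its difference was 2.53 (SE 0.808), and 1.74 (SE 0.467) without GX MRL5 3. Timp1, an inhibitor of matrix proteases, was at 22.4 to 42.3 and 38.9 to 430 (1.83, SE 0.571, and 1.34, SE 0.437, without GX MRL5 3). Hmox1, which breaks down heme, was at 129.4 to 300 and 211 to 578 (0.85, SE 0.260, and 0.66, SE 0.225). In WT mice the median of the targets was -0.05, and Hmox1 had -0.99.

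Heat shock genes, a stress-induced set that AP-1 does not define, stood highest in the same library. Their sum was 269475 in GX MRL5 3 and 57869 to 93267 in the others, and 12 of the 14 were at their highest there. Hspa1a was at 53385 in GX MRL5 3, at 202, 978, 738 and 1187 in the other GX MRL5 libraries, and at 149 to 555 in GX DMSO. Hspa1b was at 44135 in that library and 87.4 to 635 elsewhere, and Hspa8, the constitutive relative, at 26296 against 8770 to 15092. The list's median difference in GX mice was 0.28, and 0.05 without GX MRL5 3. The part of this stress signature in the values of Fos, Atf3 and the other genes was not tested.

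**Figure D4:**
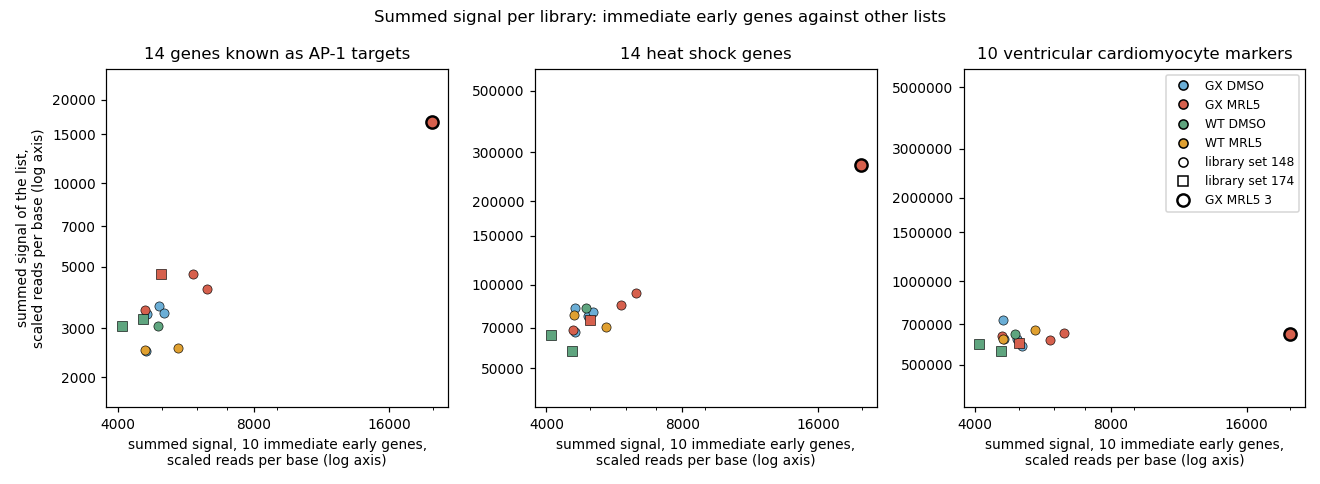
Summed signal of the 10 immediate early genes (horizontal log axis) against that of 14 AP-1 targets, 14 heat shock genes and 10 ventricular cardiomyocyte markers (vertical log axes, scaled reads per base), 1 point per library, colored by group. GX MRL5 3, with a heavy outline, is at 19933 for the 10 genes and the others between 4086 and 6308; it is also apart for targets and heat shock genes, but not for the cardiomyocyte markers.

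The genes outside all lists whose profile was most like the mean profile of the 10 over 14 libraries were Flnc (Pearson r 0.97, Spearman rho 0.93), Klhl41 (0.96, 0.64), Smad1 (0.96, 0.70), Enah (0.96, 0.78) and Xirp2 (0.96, 0.89). The first, Flnc, encodes filamin C, an actin cross-linker of striated muscle, and was at 53899 in GX MRL5 3 and 6352 to 15561 elsewhere. Since that library lies far from the others it sets most of these r values. Over the other 13 libraries the most alike were Smad1 (r 0.88, rho 0.67), Tlr4 (0.86, 0.86), Flnc (0.86, 0.89), Ttll7 (0.86, 0.79) and Hspa2 (0.83, 0.65). Flnc and Smad1 were thus in both sets of 5. The libraries share groups and library sets, and no test was made of these values.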

How the data were processed

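Polyadenylated RNA of mouse ventricle was sequenced as paired-end libraries from 14 mice, per the labels. The tools named in the submitters' processing notes are kallisto and sleuth 0.3.0, with the mouse build GRCm38. The authors deposited a signal per gene and library, named scaled reads per base in the header and treated here as a signal that is not a count; the sources used here give neither its scaling, nor the depth in reads, nor the annotation release. That deposited table also holds the authors' p-values and q-values and effects on a natural log (ln) scale.

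Of 14307 entries, 146 with values identical to another were left out and 21 symbols turned into dates were restored. Values were not rescaled. Genes with a value of at least 1 in at least 2 libraries were tested on log2(value + 1), which understates changes of low genes, with limma 3.58.1 in R 4.3.3 (trend and robust, 1 mean per group, 10 residual degrees of freedom, two-sided). Standard errors (SE) are moderated. The step was tested on simulated data. Positions are those of GENCODE M21, which held 14099 of the 14161 identifiers, and promoters those of RefSeq (GRCm38.p6). Each library is a separate mouse, per the labels.

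The members and lists were chosen with earlier results of these data known, and no list was tested. Named genes are the 10 members, the 3 genes with the smallest p of each list with at least 5 genes tested, and the 5 genes most like the members. Some genes that this rule names are not reported here. Alternatives were other scalings, filters and variance settings, a pseudocount of 0.1, only the groups compared, the library set as a covariate or 1 set alone, and each library left out in turn. Leaving out GX MRL5 3 within set 148 was added after seeing the data.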

Additional observations from a re-analysis of the deposited data

Results flagged for a closer look

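Within-group gaps were checked for 39 genes in the groups of 4 or 5 libraries, 78 groups in all. A library was noted when its gap to the nearest other library, as a share of the group's range, both of log2(signal + 1), passed Dixon's 95% value, which chance passes in about 1 of 20 groups. This held for 9 groups, and GX MRL5 3 was the library in 5 of them.

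Of the 10 immediate early genes, 3 had such a gap, all in GX MRL5 with GX MRL5 3 highest. That library and the 10 genes were chosen with earlier results of these data known, so these gaps add no separate evidence. The share was 0.833 for Fosl2, at 860 against 270 to 328 in the rest of the group, 0.736 for Junb, at 1281 against 275 to 412, and 0.732 for Ier2, at 764 against 324 to 407. On this log2 scale Atf3, Fos, Egr1 and Egr3, with the larger ratios, are not among the 9; shares of the signal itself would differ.

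Among the genes most like the 10, the same library was apart for Klhl41, with a share of 0.814 (10048 against 1660 to 2319), and for Enah, with 0.804 (5938 against 1443 to 1905). Both were picked for a likeness that this library largely sets, so these gaps follow from the choice and add no separate evidence.

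The other gaps lay in GX DMSO. Atf7 had a share of 0.878 with GX DMSO 2 lowest (54.6 against 90.7 to 97.4), and Hspa2 one of 0.926 with the same library lowest (141 against 168 to 170.4). Crtc2 had 0.886 with GX DMSO 3 highest (267 against 209 to 215), and Hspa8 had 0.893 with GX DMSO 1 lowest (9563 against 11907 to 12222).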

How the results depend on the processing

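No gene of the 10 was called under any of the 23 settings run. The lowest adjusted p, 0.0569, was that of Jund in WT mice without WT MRL5 2 (a fit that takes the spread of the 1 remaining library from the other groups). Of 1140 values over settings, 1086 kept the sign of the value over all libraries and 54 did not, and the cause was not tested. Part of the 1086 could not change. Leaving out a library outside a contrast, fitting only the 2 groups, or changing the filter or variance setting leaves the estimate as it was. The 1086 is therefore not a measure of stability. Small groups and an unknown depth limit the precision of every value. No paired analysis was possible because the sample labels link no mouse of 1 group to a mouse of another.

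Counts of genes called, 0 over all libraries, were 0 to 2 with 1 library left out for MRL5 against DMSO in GX mice (2 without GX DMSO 1), 0 to 58 in WT mice, 0 to 1 for GX against WT under DMSO (without GX MRL5 4) and 0 to 63 under MRL5. For the interaction they were 0 to 27, with 1 without each of GX DMSO 1, GX DMSO 4 and GX MRL5 1. The 58, 63 and 27 were all without WT MRL5 2. With only the 2 groups fitted 1 gene was called for GX against WT under MRL5, and with equal column sums 1 for the interaction. The 10 genes were never among them.

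Signs turned as follows on the log2 scale. For MRL5 against DMSO in GX mice, Fosl2 ran from -0.048 (without GX MRL5 3) to 0.37 over the libraries left out, and Jund from -0.065 to 0.057. Jund was also at 0.027 with equal column sums, 0.033 with the library set as a covariate and 0.057 within set 148, and Ier3 at -0.039 within set 148 without GX MRL5 3.

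For MRL5 against DMSO in WT mice, Junb ran from -0.48 to 0.43 with 1 library left out, Egr1 from -0.54 to 0.11, Ier2 from -0.081 to 0.071 and Ier3 from -0.13 to 0.024. Jun was at -0.29 with the set as a covariate and at -0.12 within set 148, with or without GX MRL5 3.

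For GX against WT under DMSO, the set as a covariate gave -0.41 for Fos, -0.27 for Jun, -0.14 for Junb, -0.080 for Atf3 and -0.11 for Ier2. Within set 148, with or without GX MRL5 3, Jun was at -0.10, Junb at -0.071 and Ier2 at -0.0073. Equal column sums gave -0.085 for Junb, -0.0064 for Egr1 and -0.022 for Ier2. With 1 library left out Junb ran from -0.076 to 0.093, Egr1 from -0.036 to 0.25, Egr3 from -0.52 to 0.080 and Atf3 from -0.076 to 0.32.

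For GX against WT under MRL5, Fosl2 ran from -0.078 to 0.35, Jund from -0.56 to 0.13 and Ier3 from -0.24 to 0.17 with 1 library left out. Within set 148 without GX MRL5 3, Fosl2 was at -0.020 and Ier3 at -0.29, and Ier3 was at -0.027 with equal column sums. For the interaction, Jun ran from -0.048 to 0.31 with 1 library left out, and Fosl2 was at 0.27 with the set as a covariate and 0.20 within set 148.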
